A study of Drosophila melanogaster with 17 samples.

Results

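Hotspots of subnucleosomal fragments were examined in Drosophila melanogaster chromatin cut with micrococcal nuclease (MNase). Hotspots were chosen by 1 measured value: a hotspot is a 200 bp bin in the highest 0.2% by distinct fragments of 51 to 100 bp, placed by midpoint, in the low MNase digest read on Illumina. Bins tiled the 6 major chromosome arms X, 2L, 2R, 3L, 3R and 4. A count of at least 19 fragments met this rule in 1194 of 601911 bins (0.198%). Adjacent bins joined into 888 regions, of which 723 were 1 bin, 93 were 2 bins and 72 were longer, up to 15 bins. The counts of that 1 library chose the hotspots and are given only as a description.

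MNase cuts the linker DNA between nucleosomes first and, as digestion goes on, trims and then opens the nucleosomes themselves. Fragments shorter than a nucleosome can come from DNA covered by smaller bound complexes, from partly unwrapped nucleosomes or from nucleosomes cut inside. At light digestion such fragments are known to mark accessible sites such as promoters and enhancers, where nucleosomes on either side often stand in regular arrays. MNase also has a base preference of its own, so digested naked DNA serves as a control for cutting that needs no chromatin.

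The study read 17 libraries of 2 cell lines, BG3-c2 from the larval central nervous system and Kc from embryos. Untreated BG3-c2 chromatin, Kc chromatin after control double-stranded RNA (dsRNA) against GST, and Kc chromatin after dsRNA against the linker histone H1 were each read as total digests in 2 nanopore libraries. BG3-c2 chromatin after GST dsRNA or after dsRNA against ISWI, the motor subunit of nucleosome-spacing remodelling complexes, was read as gel-purified tetranucleosomal DNA in 2 Illumina libraries each. A low, a medium and a high digest of untreated BG3-c2 chromatin were each read once on both platforms, and digested naked BG3-c2 DNA once on nanopore. The labels call the titration samples total digests, whereas the series text ties Illumina reading to the tetranucleosomal band. Outside hotspots, 38.6%, 38.8% and 43.4% of fragments in the low, medium and high Illumina digests were 601 to 800 bp long. The shares were 37.5% and 27.3% in the GST and 34.8% and 33.9% in the ISWI tetranucleosomal libraries. Whether the Illumina digests were size-selected too was not tested, so they may not be unselected digests. ISWI dsRNA (50 µg) acted for 6 days, and H1 dsRNA was given again on day 3 before harvest on day 6. The labels give growth at 26 °C and digestion for 20 min at 37 °C for all 17 libraries, the low, medium and high digests included. Each cell line is a single line, the extent of knockdown cannot be read from DNA fragments, and nothing in the labels says whether libraries of a group came from separate cultures, so p-values measure the spread between libraries.

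Depth set the precision. On the 6 arms the low, medium and high Illumina digests held 80417273, 41352354 and 22225674 distinct fragments. The GST libraries held 8520611 and 1470531, the ISWI libraries 5261056 and 1003420, and naked DNA 2482533. Nanopore chromatin libraries held 25421 to 1244479, and their fragments of 51 to 100 bp were too few to use (3 to 119 per library), so nanopore libraries are described by fragment ends, each end being 1 cut. The shortest fragment in every Illumina library was 51 bp, so shorter ones were not seen. All intervals below are 95% intervals for counting error only. The flanks of neighbouring hotspots overlap, so flank profiles and local ratios count some fragments more than once. Their intervals and SEs treat these counts as independent and are too narrow to that extent.

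In the low digest the hotspots held 31927 of 1487740 short fragments, 2.15% of them. The median hotspot held 23, against 2 for the median bin of the arms. The distribution had a long tail: 32 hotspots held over 50, 5 held over 100, and the highest held 807. At the threshold, the 202 bins with 19 fragments had means of 4.39 and 1.66 short fragments in the medium and high digests, and the 231 bins just outside with 18 had 4.41 and 1.65. Bins on either side of the threshold were thus alike in the other digests.

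The label holds only in part, because in the Illumina digests fragments of every length piled up at these bins. On nanopore the pile-up was far smaller, as given below. The median hotspot held 1368.5 fragment ends in the low Illumina digest against 239 for other bins. Of the hotspots 1139 (95.4%) lay above the 95th percentile of ends over all bins. Short fragments made up 3.61% of fragments centred in hotspots and 1.83% elsewhere. Fragments of 101 to 150 bp were likewise more frequent there, at 9.60% against 5.87%, and those of 601 to 800 bp were less frequent, at 26.8% against 38.6%. In the libraries the rule did not use, the short share was 2.29% in hotspots against 1.19% elsewhere in the medium digest and 2.12% against 1.05% in the high digest.

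Hotspots were not spread evenly. Arm 3L held 444 (37.2%), 2R 219, 3R 202, 2L 169, X 150 and chromosome 4 held 10. The first 3 Mb of 3L (3L:1-3000000, release 5 coordinates, dm3) held 305 of them, 25.5% of all, whereas the median 1 Mb window of the 124 windows held 5. The same stretch was raised in every BG3-c2 library, naked DNA included: it had 2.92 times the ends per bin of all other bins in naked DNA and 2.41 to 3.24 times in the BG3-c2 chromatin libraries. In the 4 Kc libraries it had 1.15 to 1.19 times. Of all bins, 2.47% lay where the mean naked DNA end count over 10 kb exceeded 2 times the genome median, but of the hotspots 333 (27.9%) did, 297 of them on 3L. The remaining 861 are called ordinary-level hotspots, and many values below are given for them too. Their share of an arm's ordinary bins was 0.207% on 2R, 0.122% to 0.141% on X, 3L, 2L and 3R, and 0.0775% on chromosome 4. Away from 3L the fullest windows were 3R:5000001-6000000 with 35 hotspots and 2R:6000001-7000000 with 31.

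The highest hotspot, X:21834801-21835000, stood apart from all others. It held 807, 420 and 235 short fragments in the low, medium and high digests, with 698 and 578 in the GST libraries and 440 and 527 in the ISWI libraries. The bin before it held 3 in the low digest and 0 in the medium and high digests. Naked DNA also had 652 ends in this bin against a genome median of 8.35 ends per bin over 10 kb. It had 545 ends in the bin before and 996 in the bin after, so naked DNA ends did not peak in this bin. In the shallow second replicates this bin alone gave 39.8% (GST) and 47.6% (ISWI) of all short fragments in hotspots, and 19.0% and 18.1% in the first replicates. Results on short fragments are therefore given with and without it.

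The second highest region, 2R:16667801-16668200, held 413, 285 and 189 short fragments in the low, medium and high digests. It held 85 and 25 in the GST and 43 and 15 in the ISWI libraries, at 0.887 times the median 10 kb naked DNA level, and 53 naked DNA ends over its 2 bins (26.5 per bin). On 2L the leading region, 2L:9902201-9902600, held 174, 95 and 79 in the digests, 22 and 19 in GST and 33 and 12 in ISWI, with 32 naked DNA ends per bin. Both regions thus stayed high in every Illumina library and had more naked DNA ends than the median of 8.35 per bin.

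The leading regions of 3L, 3R and 4 behaved differently. On 3L, 3L:2069201-2069800 held 184, 143 and 118 in the digests but only 4 and 1 in GST and 3 and 0 in ISWI. On 3R, 3R:32401-32800 held 166, 29 and 6 in the low, medium and high digests, with 6, 2, 5 and 3 in the GST and ISWI libraries. It also had 13229 fragment ends in the low digest and 4 in naked DNA. On chromosome 4, 4:346801-347000 held 28, 5 and 2 in the digests and 6, 0, 0 and 0 in GST and ISWI. No annotation of release 5 was used here, so no region is tied to a gene.

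Short fragments stayed concentrated at hotspots in both deeper digests. The medium digest held 6.61 short fragments per hotspot and 0.814 per other bin, 8.12-fold (7.94 to 8.30), and the high digest held 2.65 against 0.387, 6.84-fold (6.60 to 7.08). In the low digest, which chose the hotspots, the ratio was 11-fold. On the log2 scale the high digest stood below the medium by -0.25 (-0.31 to -0.19), with 1 library each and no replicate check. For ordinary-level hotspots the folds were 7.76 and 6.35. With fragments of 51 to 80 bp in place of 51 to 100 bp, the difference between digests was -0.0033 (-0.097 to 0.089), so the decline was not detectable in that narrower class.

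Most single hotspots did not keep their rank. At their own highest 0.2% of bins, which ties of low counts cut to 0.183% and 0.0909% of all bins in the medium and high digests, the medium digest shared 379 bins with the hotspots and the high digest 130. These are 31.7% and 10.9% of the hotspots, and 34.5% and 23.8% of the digests' own lists. Both lists held 102 hotspots (8.54%), and 787 (65.9%) were in neither. Still, 98.5% and 74.8% of hotspots in the medium and high digests were above the mean of other bins. Those means were 0.814 and 0.387, so this asked only for 1 short fragment or more. No short fragment at all was seen at 18 and 301 hotspots in the medium and high digests. These are 1.51% and 25.2% of hotspots, beside 49.1% and 69.8% of other bins. The thresholds behind these lists were only 7 and 5 fragments, so the shares move with depth.

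Regions differed widely in how they kept their short fragments. The median region had 0.332 times the share of the library's short fragments in the high digest that it had in the low, 109 of 888 regions rose above 1, and 216 had none in the high digest. Since the low count chose the regions, values under 1 are partly fixed by that choice and are not read as a loss. The highest ratios were at 2L:4938201-4938400 (8.96), with 19, 19 and 27 fragments in the low, medium and high digests, at 2R:16670001-16670200 (5.05) with 20, 15 and 16, and at 2L:5166201-5166400 (4.34) with 32, 23 and 22. The first of these lay within 1 kb of another region that stayed high, 2L:4939001-4939200, with 30, 18 and 17. At the other end, 3R:6062201-6062600 held 76, 11 and 0 in the low, medium and high digests. At 3L:2824401-2824800 the counts were 69, 15 and 0, and at 3L:633201-633600 they were 52, 12 and 0. A count of 0 allows up to 3 fragments at each in the high digest, a one-sided limit.

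**Figure D1:**
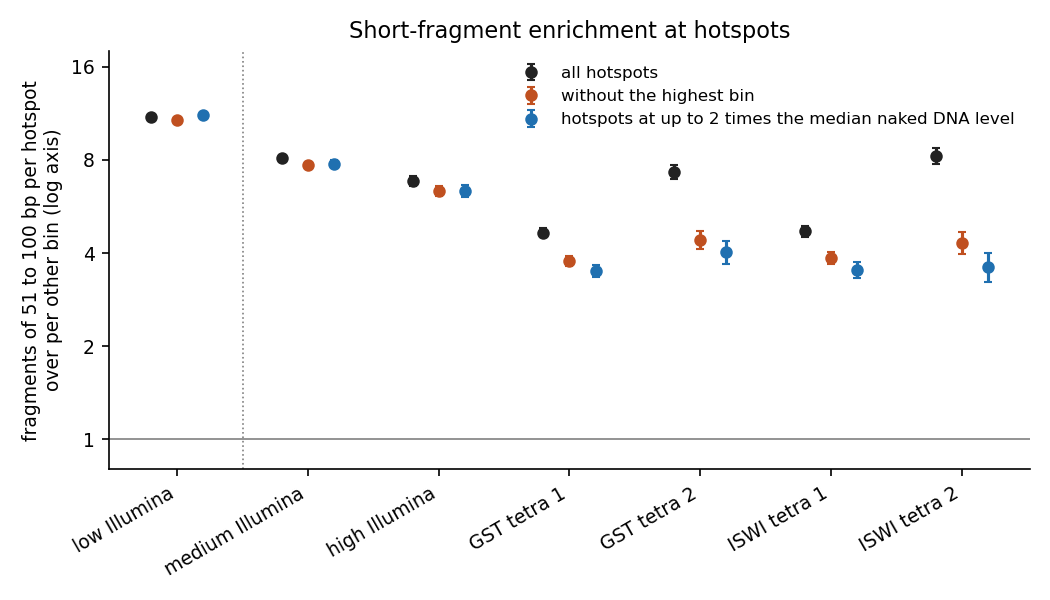
Fragments of 51 to 100 bp per hotspot divided by those per other bin (log axis) in the 7 Illumina libraries, for all hotspots, without the highest bin, and for ordinary-level hotspots. Points are library values and bars 95% Poisson intervals; the low digest left of the dotted line chose the hotspots. All libraries lie above 1, and the second GST and ISWI replicates drop from 7.31 and 8.23 to 4.41 and 4.32 without the highest bin.

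The tetranucleosomal libraries asked whether hotspots found in untreated chromatin recur after GST or ISWI dsRNA. They did recur as a group. Short fragments were 4.65-fold and 7.31-fold denser in hotspots than elsewhere in the GST libraries, and 4.70-fold and 8.23-fold denser in the ISWI libraries. The mean log2 enrichment was 2.59 ± 0.43 (SD, n = 4 libraries), positive in all 4, with p = 0.12 by an exact two-sided sign-flip permutation test, the smallest value that 4 libraries allow. Without the highest bin it was 2.03 ± 0.11 and the folds ran from 3.77 to 4.41. At ordinary-level hotspots it was 1.87 ± 0.093, from 3.50-fold to 4.02-fold.

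In these libraries the density of all fragments rose about as much as that of short ones. At ordinary-level hotspots, ends of all fragments were 3.38-fold and 4.69-fold denser in GST and 3.55-fold and 4.52-fold denser in ISWI. The short share of fragments there was 5.12% and 6.06% in GST, against 4.68% and 6.84% at other ordinary-level bins, and 5.40% and 5.69% in ISWI against 4.97% and 6.79%. It was thus higher than elsewhere in both first replicates and lower in both second replicates. In the digests the short share at the same hotspots was higher than elsewhere, by 1.77 and 1.82 times in the medium and high digests.

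Few single hotspots were among the highest bins of the tetranucleosomal libraries. The 2 GST libraries' own lists (0.199% and 0.139% of all bins) held 63 and 44 hotspots, 5.28% and 3.69% of the hotspots and 5.25% and 5.24% of those lists. The ISWI lists (0.111% and 0.0543% of all bins) held 43 and 26, which are 3.60% and 2.18% of the hotspots and 6.45% and 7.95% of the lists. No short fragment was seen at 332 and 757 hotspots in GST (27.8% and 63.4%), beside 60.7% and 86.4% of other bins. In ISWI none was seen at 458 and 858 hotspots (38.4% and 71.9%), beside 70.7% and 90.4% of other bins. The second replicates thus say little about a single bin.

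Only 11 bins in 7 regions were in the highest bins of all 6 Illumina libraries other than the low digest. They were picked out after their values were seen. Besides the leading regions of X, 2R and 2L and 2L:4939001-4939200, named above, they were 3L:11957201-11957400, 3R:21224401-21224600 and 3L:15063001-15063800. The 3L bin 3L:11957201-11957400 held 34, 15 and 13 short fragments in the digests, 21 and 4 in GST and 12 and 4 in ISWI. The 3R bin held 33, 24 and 13, then 10 and 9 in GST and 12 and 12 in ISWI. Their naked DNA end counts were 3 and 5, at 0.850 and 0.883 times the median 10 kb level, and both counts lay below the genome median of 8.35 ends per bin. The other 5 of the 7 regions were above it, with 21 ends over 1 bin at 2L:4939001-4939200, 64 and 53 over 2 bins each at the leading regions of 2L and 2R, 520 over 4 bins at 3L:15063001-15063800 and 1648 over 2 bins on X.

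Between ISWI and GST dsRNA, short-fragment enrichment at hotspots differed by less than the spread between replicates. The log2 enrichment of short fragments was 2.23 and 3.04 in ISWI (mean 2.64 ± 0.57, SD, n = 2) and 2.22 and 2.87 in GST (2.54 ± 0.46), a difference of 0.093. The groups overlapped (exact two-sided permutation p = 0.667, smallest possible 0.33). Within replicate numbers it was 0.017 and 0.17. Without the highest bin the difference was 0.0016, and at ordinary-level hotspots it was -0.073, so its sign was not stable.

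Bin by bin, limma with Benjamini-Hochberg adjustment over all bins tested called no bin in either measure (0% called of 5352 bins for short fragments and of 285628 for ends). Of the hotspots, 153 had the 10 short fragments needed over the 4 libraries and 945 had the 40 ends. At an unadjusted p under 0.05, 3 hotspots (1.96%) passed for short fragments, all higher in ISWI, against 3.33% of all bins. For ends 65 (6.88%) passed, 29 higher and 36 lower, against 5.58%. The median log2 change of the tested hotspots was 0.034 for short fragments and -0.031 for ends, beside 0.15 and 0.0060 over all tested bins. When ISWI replicate 1 was left out, 11 of 803 hotspots passed for ends, beside 0.990% of all bins, and without ISWI replicate 2 or GST replicate 2 there were 2 and 1, beside 8 of 267983 and 2 of 257524 bins in all.

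Flanking nucleosomes were followed by the midpoints of mononucleosome-sized fragments (120 to 180 bp) within 1 kb of each hotspot, centred on the median midpoint of its short fragments and folded over both sides. The summed profile fell away from the centre and showed no ladder of successive peaks. Relative to the mean 300 to 1000 bp away, ordinary-level hotspots had 1.92 times as many within 100 bp in the low digest, 1.86 in the medium digest and 1.66 in the high digest. From 100 to 200 bp the values were 1.38, 1.38 and 1.28, and from 400 to 500 bp they were 1.02, 1.01 and 1.04. The GST libraries had 1.56 and 1.74, and the ISWI libraries 1.57 and 1.7, within 100 bp. Mononucleosome-sized fragments were thus densest at the hotspot itself, with no depleted gap there.

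A single secondary rise lay 600 to 720 bp out. Above a straight line through its surroundings it measured 14.7% ± 0.39, 12.3% ± 0.66 and 8.47% ± 0.95 in the low, medium and high digests (counting SE, all hotspots). It was 6.85% ± 1.3 and 3.34% ± 2.7 in GST and 10.1% ± 1.8 and 2.92% ± 3.5 in ISWI. At ordinary-level hotspots it was 13.3% ± 0.45, 11.8% ± 0.79 and 7.89% ± 1.2 in the digests, 10.1% ± 1.7 and 12.7% ± 3.6 in GST and 14.0% ± 2.3 and 6.97% ± 4.7 in ISWI. In ISWI replicate 2 it was within 2 SE of 0 in both sets, and in GST replicate 2 over all hotspots only. Over all hotspots its highest point lay at 670 to 710 bp in all 7 libraries. Fragments centred in other bins, looked at only from 600 to 800 bp, were most frequent at 629 to 695 bp in the same libraries. This length and the highest point of the rise were 695 and 690 bp in the low digest but 629 and 710 bp in ISWI replicate 2. Whether the length of the tetranucleosomal fragments sets this distance was not tested.

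**Figure D2:**
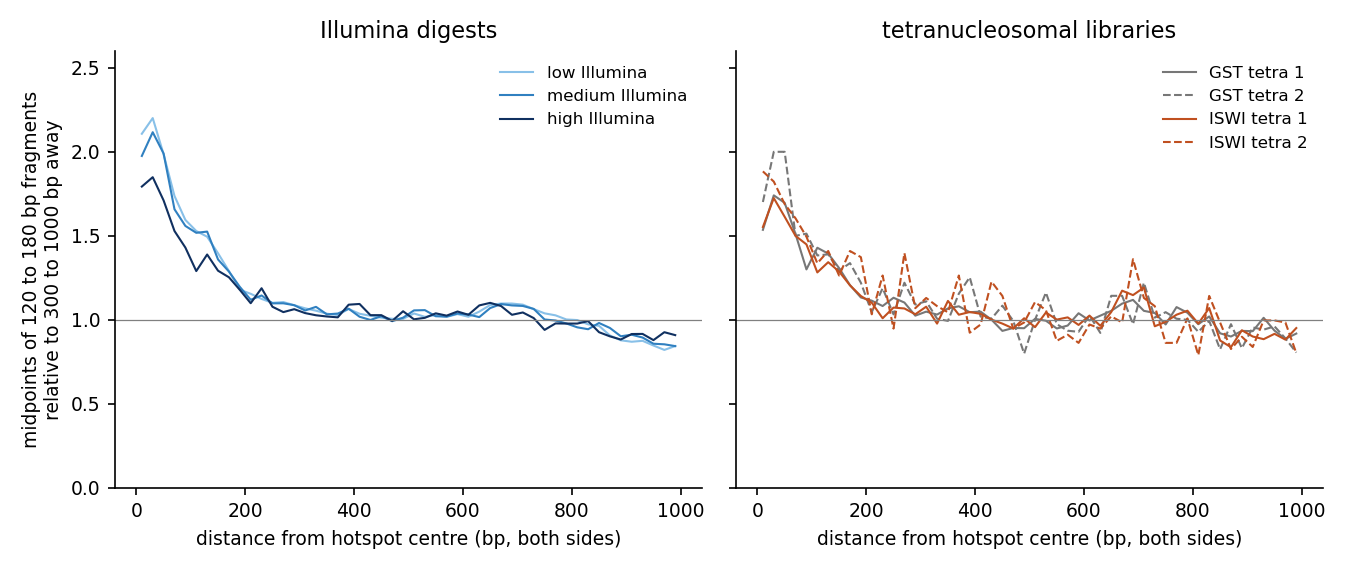
Midpoints of 120 to 180 bp fragments against the distance from the centre of ordinary-level hotspots, both sides folded together, relative to the mean 300 to 1000 bp away. Lines are single libraries, the 3 digests on the left and the GST and ISWI libraries on the right. All lines fall from the centre to about 1 by 400 to 500 bp, with a low rise near 690 bp.

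A cosine of period 150 to 250 bp described these flanks poorly. Its amplitude was 3.79% ± 0.18 (SE) of the mean at 184 bp in the low digest and 4.45% ± 0.30 at 186 bp in the medium one. It was 2.39% ± 0.47 in the high digest, where the period ran to the search limit of 250 bp. At ordinary-level hotspots the amplitudes were 3.52%, 4.39% and 2.92%. The high digest was lower than the medium by -2.07 percentage points (-3.16 to -0.98). That difference shrank to -0.32 (-1.41 to 0.76) when profiles were centred on the middle of the bin, so it depended on the centre chosen.

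With fragments of 120 to 180 bp, the flanks of ISWI and GST libraries differed by less than the spread between replicates. The amplitude was 3.18% and 2.82% in ISWI and 2.26% and 3.23% in GST, a difference of 0.25 percentage points with overlapping groups (exact permutation p = 1). With fragments of 140 to 160 bp it was 5.05% and 6.31% in ISWI and 3.07% and 3.84% in GST, a difference of 2.23 points without overlap (exact permutation p = 0.33, the smallest possible). With the highest 0.5% of bins the groups did not overlap either (2.88% and 3.54% against 2.84% and 2.69%), and the difference changed sign under other settings. The period was 181 bp in ISWI replicate 1 and at the 250 bp limit in the other 3 libraries. The resulting mean difference of -34.5 bp (exact permutation p = 1) is therefore no measure of nucleosome spacing.

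Summing over hotspots hides arrays whose phase differs from site to site, so periodicity was also measured in each flank with its own phase, after subtracting counting noise. This was done for 855 ordinary-level hotspots and 586127 other ordinary-level bins, in the 5 deeper libraries. Bins in 1 kb windows over 5 times the median naked DNA count were left out of both sets. At 180 bp the amplitude at hotspots was 20.8%, 22.7% and 24.5% in the low, medium and high digests, and 30.2%, 31.8% and 32.5% beside other bins. In GST replicate 1 it was 32.8% against 36.8%, and in ISWI replicate 1 it was 32.3% against 35.7%. The amplitude at 180 bp was thus lower beside hotspots in all 5 libraries, with no test, since flanks of 1 library are not replicates. Uneven signal of any kind adds to this measure. Over periods of 150 to 250 bp in the low digest it ran only from 18.1% to 20.8% at hotspots, and from 23.4% to 30.2% beside other bins. Beside other bins it was highest at 170 bp in GST replicate 1 and at 230 bp in ISWI replicate 1. At the 250 bp limit the amplitude at hotspots was highest in both tetranucleosomal libraries, 34.5% in GST and 41.8% in ISWI, against 31.5% and 37.5% beside other bins.

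**Figure D3:**
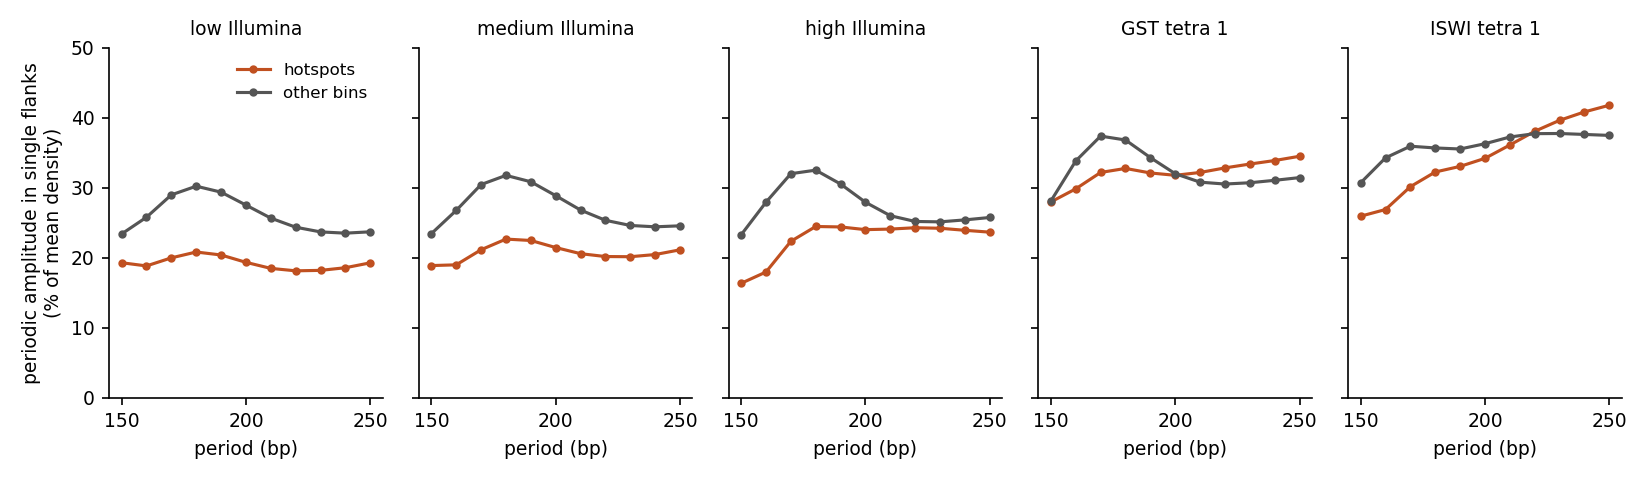
Periodic amplitude of mononucleosomal midpoints 100 to 1000 bp beside single bins, as percent of mean density, against the period tested. Shown are 855 ordinary-level hotspots and 586127 other ordinary-level bins, both without 1 kb windows over 5 times the median naked DNA count. Each panel is 1 library. Hotspots lie below other bins at 180 bp in all 5 panels (20.8% against 30.2% in the low digest).

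Naked DNA asked whether the enzyme cuts hotspots more often with no chromatin present. Over all hotspots naked DNA had 15.9 ends per bin against 8.23 elsewhere, 1.93-fold (1.90 to 1.96), or 0.95 on the log2 scale. At ordinary-level hotspots it had 7.26 against 7.81, 0.930-fold (0.907 to 0.953), so the direction turned once bins of raised 10 kb level were left out. A local ratio, ends per bp within 100 bp of the centre over ends 300 to 1000 bp away, does not use other parts of the genome. It was 1.08 (1.07 to 1.1) for all hotspots, 0.952 (0.927 to 0.978) for ordinary-level hotspots and 1.17 (1.14 to 1.19) for the 333 others. Without the 116 hotspots in 1 kb windows over 5 times the median naked DNA count, it was 0.959 (0.941 to 0.978). Both the 10 kb and the 1 kb cut used the naked DNA end counts that are measured here. Lower naked DNA values after either cut, and the turn of direction, are therefore partly fixed by that choice.

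At ordinary level, naked DNA cutting varied more among hotspots than among other bins. Of all bins 45.8% had more ends than the mean of their own 10 kb, and of the hotspots 455 (38.1%) did. The hotspots were not of 1 kind in this: 33.1% of those at ordinary level did and 51.1% of the 333 others. More than 2 times that mean was seen at 79 hotspots (6.62%) and at 2.54% of other bins, and less than 0.5 times at 275 (23.0%) and 13.0%. At ordinary level these shares were 6.85% and 31.1% of hotspots against 2.57% and 13.2% of other bins. At raised level they were 6.01% and 2.10% of hotspots, which were not set against other raised-level bins. No end was seen at 83 hotspots, all among the 861 at ordinary level, beside 11977 of 586175 other ordinary-level bins. The highest naked counts among regions with at most 5 times the median 10 kb level were at 3L:15063001-15063800 (520 ends over 4 bins), 3L:14823001-14823400 (145 over 2) and X:323401-323600 (72 in 1). All 3 also lay in dense 1 kb windows. The lowest were 2R:10907601-10908600, 3R:6062201-6062600 and 2R:12427801-12428200, with 0 ends over 5, 2 and 2 bins, which by the same one-sided limit allows up to 3 each. Their short fragments in the low digest, by which ties were broken, were 122, 76 and 50. Hotspots thus included stretches with many and with 0 naked DNA ends. Nanopore chromatin also had few ends at these 3 regions, 0, 1 and 0 in BG3-c2 replicate 1 and 2, 6 and 1 in Kc GST replicate 1. Bins outside hotspots held 1.72 and 4.13 ends each in those libraries. A count of 0 in naked DNA therefore does not by itself show that the DNA was uncut. Higher naked counts than any hotspot's were seen outside them, up to 1469 ends in 1 bin against 996.

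Nanopore chromatin gave local ratios above those of naked DNA in most libraries. At ordinary-level hotspots they were 1.23 (1.17 to 1.3) and 1.35 (1.20 to 1.51) in untreated BG3-c2, and 1.19 (1.11 to 1.27), 1.19 (1.11 to 1.27) and 0.986 (0.904 to 1.07) in the low, medium and high nanopore digests. Only the high digest had an interval that overlapped that of naked DNA among these 5. The Illumina digests had 1.49, 1.41 and 1.33. The ratio was thus lowest in the high digest on both platforms. Against other ordinary-level bins the platforms differed more. Ends were 6.06-fold, 4.61-fold and 3.79-fold denser at these hotspots in the low, medium and high Illumina digests, of which the low chose the hotspots. In the nanopore digests the folds were 1.18 (1.11 to 1.26), 1.09 (1.02 to 1.16) and 0.798 (0.734 to 0.865). The cause of this gap between platforms was not tested.

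**Figure D4:**
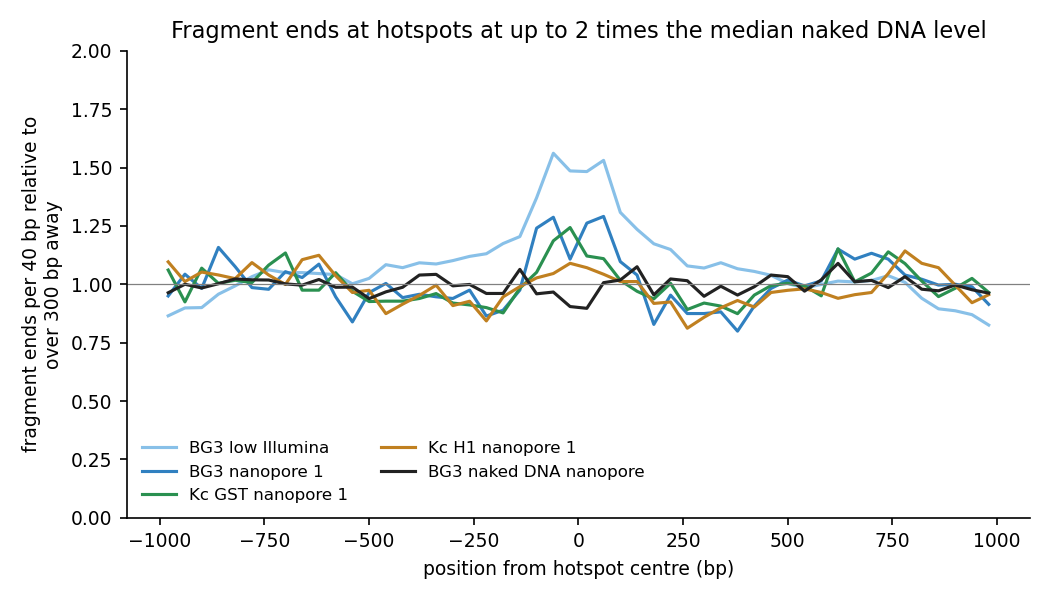
Fragment ends per 40 bp around the centre of the 861 ordinary-level hotspots, relative to positions over 300 bp away, in the low Illumina digest, the first nanopore replicates and naked DNA. Local ratios are 1.49 in the low Illumina digest, 1.23 in BG3-c2 replicate 1 and 1.14 in Kc GST replicate 1. The ratio is only 1.05 (1.000 to 1.109) in Kc H1 replicate 1, and 0.952 in naked DNA.

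Kc cells tested whether hotspots defined in BG3-c2 were also cut in another cell line. Against all other bins, log2 end enrichment was 0.34 and 0.57 in Kc with GST dsRNA (0.45 ± 0.16, SD, n = 2) and 1.11 and 1.15 in untreated BG3-c2 (1.13 ± 0.024). The difference of -0.68 did not overlap between groups, and the exact two-sided permutation p was 0.33, the smallest possible. At ordinary-level hotspots the values were -0.046 and 0.16 in Kc and 0.22 and 0.49 in BG3-c2, a difference of -0.30 (exact permutation p = 0.33). Most of the gap thus went with bins whose level was raised in BG3-c2 naked DNA. The local ratio at all hotspots was 1.19 and 1.31 in Kc and 1.29 and 1.34 in BG3-c2, and these groups overlapped (difference -0.065, exact permutation p = 0.667). Since only the Kc libraries had dsRNA, an effect of the cell line and one of the treatment cannot be told apart.

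H1 dsRNA in Kc went with less end enrichment at hotspots in both replicates, within a spread that 2 libraries a group cannot resolve. Log2 enrichment was 0.23 and 0.18 after H1 dsRNA (0.21 ± 0.040) and 0.34 and 0.57 after GST dsRNA, a difference of -0.25 (exact permutation p = 0.33, the smallest possible). At ordinary-level hotspots the values were -0.23 and -0.34 against -0.046 and 0.16, a difference of -0.34 (p = 0.33, exact permutation). The local ratio was 1.1 and 1.15 after H1 dsRNA against 1.19 and 1.31. The second replicates held only 25421 and 25545 fragments, and the interval of the local ratio in H1 replicate 2 was 0.939 to 1.40, which spans all 4 values. Within replicate 1 alone the intervals were 1.05 to 1.14 after H1 dsRNA and 1.16 to 1.22 after GST dsRNA. These are counting intervals of 1 library each, not a spread between replicates. At ordinary-level hotspots the local ratio was 1.05 and 1.08 after H1 dsRNA against 1.14 and 1.30. There the replicate 1 intervals overlapped, 1.000 to 1.109 after H1 dsRNA and 1.099 to 1.181 after GST dsRNA.

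**Figure D5:**
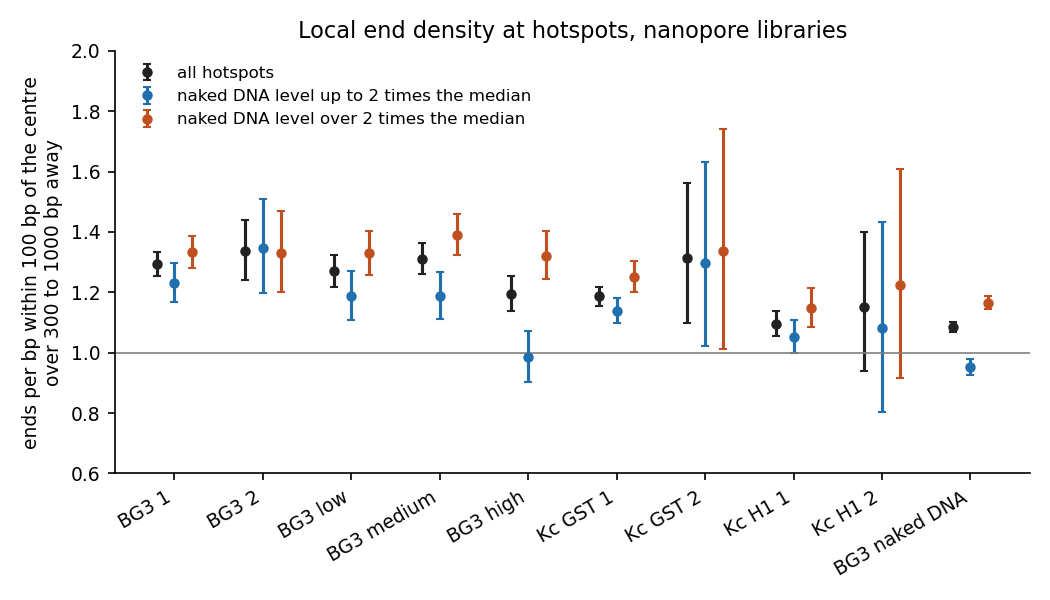
Local end ratio (ends per bp within 100 bp of the centre over 300 to 1000 bp away) in the 10 nanopore libraries, for all, ordinary-level and raised-level hotspots. Points are library values and bars exact 95% binomial intervals. Naked DNA lies below 1 only for ordinary-level hotspots (0.952) and above 1 for raised-level ones (1.17).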

How the data were processed

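Each deposited table holds 1 interval per aligned fragment, as start and end positions. Bowtie 1.1.1, bedtools and build dm3 are named in the submitters' processing notes. The authors' other columns (read names, a score and a strand) were not used, and the unit of the deposited positions is bp, another unit than a count. The 6 titration tables were matched to libraries by table name. Lengths were end minus start, identical intervals on the 6 arms were counted once, and bins were numbered from the first base of each arm. Positions are printed counted from 1.

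Hotspots and tests were chosen with earlier results of these data known. Enrichment is the mean per hotspot over the mean per other bin. ISWI and GST bins were compared with limma 3.58.1 in R 4.3.3 (lmFit, eBayes with trend) on log2 of fragments scaled to library size with a prior count of 0.5, after a check on simulated data. Single values were compared by exact permutation of libraries (scipy 1.17.1). Intervals are exact Poisson (enrichment), exact binomial (ratios) or 1.96 SE (cosine amplitude). Regions were named by rule: the highest on each arm, and, among regions with a 10 kb naked DNA level up to 5 times the median, the 3 highest and lowest in high to low digest ratio and in naked DNA ends per bin. Ties went to the higher low-digest count. Genes, sequences and GC content were not analysed here, since no genome of the build was used.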

Additional observations from a re-analysis of the deposited data

How the results depend on the processing

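The enrichment of short fragments in the tetranucleosomal libraries stayed positive in every alternative run (log2 1.81 to 3.76, and 2.44 to 2.72 leaving out 1 library each), as did the negative differences of Kc against BG3-c2 (-0.79 to -0.56 leaving out 1 library) and of H1 against GST (-0.36 to -0.14). None of these tests could reach 0.05. Alternatives that left out the raised 10 kb level or the highest bin, took 1 bin per region or used the local ratio were chosen after seeing the data. The ISWI minus GST difference in log2 enrichment turned to -0.014 without dense naked DNA windows and to -0.073 at ordinary-level hotspots, and ranged from -0.31 to 0.50 leaving out 1 library. Its amplitude difference (percentage points) turned to -1.15 on a grid shifted by 100 bp, -0.18 with repeated intervals counted, -0.084 without dense windows and -0.43 with 1 bin per region, grew to 2.23 with 140 to 160 bp fragments and 2.11 centred on the bin, and ranged from -0.23 to 0.74 leaving out 1 library. Its period difference turned to 19.5, 35 and 70.5 bp with the shifted grid, repeated intervals and a flank of 100 to 700 bp. It stayed negative, at -8.5, -1.5 and -9 bp, centred on the bin, with the highest 0.5% of bins and with 140 to 160 bp fragments. Leaving out 1 library it ranged from -69 to 0. The replicate numbers pair the libraries by number only (correlation of deviations over bins 0.093). With the replicate block, limma called 1 hotspot for short fragments and 6 for ends, beside 15 and 176 bins in all, and the block changed no other call. Leaving out 1 library gave 0 hotspots for short fragments and 0 to 11 for ends. High minus medium log2 enrichment moved to -0.12 with the highest 0.1% of bins, -0.18 with repeated intervals and -0.0033 with 51 to 80 bp. High minus medium amplitude moved to -0.47 on the shifted grid, -0.54 with 140 to 160 bp fragments and -0.32 centred on the bin. The naked DNA log2 end enrichment moved to 1.16 and 0.89 with the highest 0.1% and 0.5% of bins, 0.99 on the shifted grid, 1.19 with repeated intervals, 0.40 without dense windows, 0.90 without the highest bin, 0.12 as the local ratio and -0.10 at ordinary-level hotspots. The cause of these changes was not tested, and cuts made on naked DNA counts partly fix the naked DNA values. Depth limits single hotspots in the high digest and in the second GST and ISWI replicates, where most hold 0 or 1 short fragment.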
